A study of Mus musculus with 6 samples.

Results

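Transcripts of 8 genes that mark or drive the hormone-sensing luminal cell were examined in sorted mouse mammary tumour cells. The genes are the steroid receptors Esr1 and Pgr, the transcription factors Foxa1, Gata3 and Tbx3, the coregulators Cited1 and Greb1, and the secreted glycoprotein gene Stc2. They were chosen by name as rows of the deposited table whose Ensembl IDs map to these symbols, and all 8 of 8 were found among 52325 IDs and passed the filter on low counts that left 20684 genes. RNA was sequenced from 6 libraries of cells from breast tumours of C57BL/6 mice labelled C3-T; Elf5-GFP, a tumour background with a green fluorescent reporter of the transcription factor gene Elf5. The 2 Elf5-positive libraries hold GFP-positive cells and the 4 Elf5-negative libraries hold GFP-negative cells of the same background. Before the split by GFP, cells of the digested tumours went through a sort on CD45, CD31 and TER119, markers of leukocytes, endothelial cells and red blood cells. These antibodies do not remove fibroblasts. The labels give neither the ages nor the number of mice or tumours behind a library, and do not say that libraries came from separate animals. Each p-value therefore refers to variation among these 6 libraries, which may be technical.

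Each title also holds 1 of 2 numbers and the code T1 or T2, and the labels define neither. Both Elf5-positive libraries are T2. Elf5-negative libraries 2 and 4 are T2 and share their number with Elf5-positive libraries 1 and 2, in that order. Elf5-negative libraries 1 and 3 are T1. Totals were 45145621 and 49563376 counts in the Elf5-positive libraries and 9106660 to 53694884 in the Elf5-negative ones, of which library 4 was the shallowest. Elf5 itself was at 77.7 and 137.0 CPM (counts relative to library size, scaled with TMM factors) in the Elf5-positive libraries and at 6.93 to 24.7 CPM in the Elf5-negative libraries (log2 fold change 3.04, edgeR adjusted p = 0.0165).

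The mammary epithelium holds a basal layer and a luminal layer, and only part of the luminal cells make oestrogen and progesterone receptors. These hormone-sensing cells answer oestradiol through the oestrogen receptor, encoded by Esr1. The receptor works with the pioneer factor Foxa1 and with Gata3, and induces Pgr and Greb1. The cells then signal to their neighbours through secreted factors such as amphiregulin, Wnt4 and RANKL. Elf5 marks the other luminal branch, the progenitor and alveolar cells that lack these receptors, and in human breast cancer cells its expression has been linked to lower oestrogen sensitivity.

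The starts of 3 of the genes are shown because Pgr and Greb1 are textbook oestrogen-induced genes and Gata3 differed from them in direction. RefSeq promoters (250 bases before to 50 after a start, GRCm38.p6) were found for 7 of the 8 genes, 11 promoters in all. Each was searched on both strands for the full oestrogen response element, its half-site (AGGTCA, which overlaps the full element in part), a progesterone and glucocorticoid response element (ACANNNTGT), the motif of forkhead factors (TGTTTAC), that of GATA factors (AGATAA) and that of ETS factors (CCGGAAG). Capitals mark these matches, and a promoter with no capitals holds none of the 6 motifs. The strand printed is that of the gene, 5′ to 3′. The Pgr promoter is chr9:8899583-8899882 (forward strand), those of Greb1 are chr12:16800837-16801136 and chr12:16757190-16757489 (reverse strand) and that of Gata3 is chr2:9878551-9878850 (reverse strand).
Pgr: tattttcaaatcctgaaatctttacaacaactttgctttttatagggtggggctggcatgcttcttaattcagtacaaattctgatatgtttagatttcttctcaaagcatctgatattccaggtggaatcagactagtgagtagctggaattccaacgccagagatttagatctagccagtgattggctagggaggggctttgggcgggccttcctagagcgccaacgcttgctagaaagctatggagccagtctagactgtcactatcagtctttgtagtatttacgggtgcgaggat
Greb1, upstream start: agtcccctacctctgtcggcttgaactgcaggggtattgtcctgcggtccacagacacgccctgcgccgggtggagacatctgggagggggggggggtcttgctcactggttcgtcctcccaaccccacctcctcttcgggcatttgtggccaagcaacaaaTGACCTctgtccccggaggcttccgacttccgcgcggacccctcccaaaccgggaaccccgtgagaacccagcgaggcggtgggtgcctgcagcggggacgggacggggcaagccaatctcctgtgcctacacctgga
Greb1, inner start: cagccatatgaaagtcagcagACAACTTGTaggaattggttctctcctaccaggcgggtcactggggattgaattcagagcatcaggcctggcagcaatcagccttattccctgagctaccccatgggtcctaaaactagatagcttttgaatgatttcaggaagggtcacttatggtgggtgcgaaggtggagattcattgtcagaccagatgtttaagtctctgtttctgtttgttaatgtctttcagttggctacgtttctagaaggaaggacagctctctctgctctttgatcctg
Gata3: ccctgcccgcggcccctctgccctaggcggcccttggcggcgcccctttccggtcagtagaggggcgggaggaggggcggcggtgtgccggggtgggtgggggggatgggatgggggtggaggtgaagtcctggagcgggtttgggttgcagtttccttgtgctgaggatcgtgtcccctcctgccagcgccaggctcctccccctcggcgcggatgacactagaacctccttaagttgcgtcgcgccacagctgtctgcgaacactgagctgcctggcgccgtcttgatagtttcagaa
The upstream Greb1 promoter held 1 half-site, 88 to 83 bases before the start, and such a half-site stands in 16.3% of all 32851 RefSeq mouse promoters in the table. The inner Greb1 promoter held 1 progesterone and glucocorticoid element, which 6.85% of all promoters hold. Among the promoters not printed, that of Foxa1 held 1 forkhead motif (3.65% of all promoters) and 1 of 3 Cited1 promoters held an oestrogen half-site. The full oestrogen element was in 0.07% of all promoters, the GATA motif in 11.2% and the ETS motif in 8.86%, and none of the 11 promoters held one of these 3. A match is a description of letters, and no match says nothing of binding outside these windows.

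Per length, Gata3 and Stc2 were the most abundant of the 8 genes and Greb1 and Pgr the least abundant. Levels were divided by the length of the longest transcript that GENCODE M21 marks as principal. Gata3 averaged 27.6 ± 11.7 CPM per kb in the Elf5-positive libraries and 13.6 ± 2.02 CPM per kb in the Elf5-negative libraries (SD, n = 2 and n = 4). Stc2 averaged 10.6 ± 0.324 in the Elf5-positive libraries and 13.0 ± 5.37 CPM per kb in the Elf5-negative libraries. Gata3 and Stc2 overlapped in the Elf5-negative libraries and not in the Elf5-positive libraries. Next in the Elf5-positive libraries came Tbx3 at 2.47 ± 3.43, Cited1 at 1.23 ± 0.563, Foxa1 at 0.907 ± 0.751 and Esr1 at 0.750 ± 0.0921 CPM per kb. The order was the same in the Elf5-negative libraries, with Tbx3 at 4.84 ± 4.71, Cited1 at 3.43 ± 2.70, Foxa1 at 2.18 ± 1.81 and Esr1 at 1.66 ± 0.762 CPM per kb. Neighbours among these 4 overlapped in both groups. Pgr averaged 0.142 ± 0.00227 CPM per kb in the Elf5-positive libraries and 0.587 ± 0.435 in the Elf5-negative libraries. Greb1 was lowest, at 0.0483 ± 0.0343 CPM per kb in the Elf5-positive libraries and 0.346 ± 0.0900 in the Elf5-negative libraries. Esr1, Pgr and Greb1, each beside the next, overlapped in the Elf5-negative libraries and not in the Elf5-positive libraries. By average log2 CPM over the 6 libraries, which is not per length, Gata3 lay at percentile 79.9 of all genes tested, Esr1 at 47.8, Pgr at 37.6 and Greb1 at 33.6.

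The comparison asks whether the hormone-sensing programme differed between Elf5-positive and Elf5-negative tumour cells. The receptor genes Esr1 and Pgr and the coregulator gene Greb1 were lower in both Elf5-positive libraries than in every Elf5-negative library, and Gata3 was higher in both. None of the 8 genes passed at an adjusted p below 0.05 (edgeR quasi-likelihood test, adjusted by Benjamini-Hochberg), where 4.37% of all genes did, 0.585% higher and 3.79% lower. Without adjustment, 4 had a p under 0.05, Gata3 as higher and Esr1, Pgr and Greb1 as lower, against 16.9% of all genes. DESeq2 called Gata3 higher and Pgr and Greb1 lower, where it called 10.6% of all genes, and limma-voom called Greb1 lower, where it called 5.19% of all genes. With the title number, which the labels do not define, as a block, edgeR called Gata3 higher (adjusted p = 0.0407) and Greb1 lower (adjusted p = 0.0261). That fit called 252 of all genes higher and 1011 lower. The median log2 fold change of the 8 was -1.21, beside 0.05 for all genes tested, and 7 of the 8 values were below 0. The groups did not overlap in 4 of the 8, where 25.7% of all genes tested did not overlap.

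**Figure D1:**
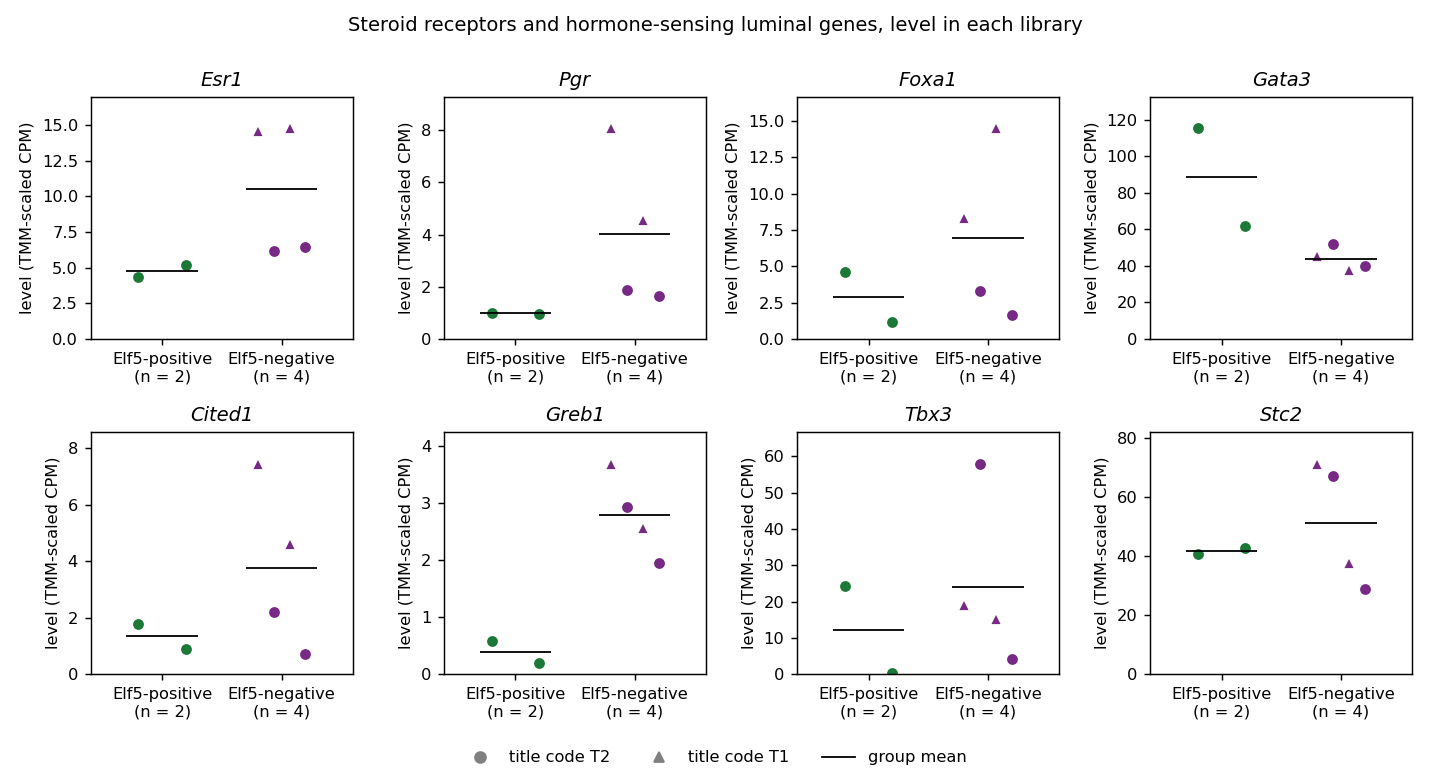
Level of each of the 8 genes in each library (y axis, TMM-scaled CPM from 0; x axis, group; circles, T2 libraries; triangles, T1 libraries; lines, group means). Both Elf5-positive libraries lie below all Elf5-negative libraries for Esr1, Pgr and Greb1 and above them for Gata3. Scaled to epithelial genes, Gata3 turns to a log2 fold change of -0.43, where the median of all genes tested is -1.31. The T1 libraries are the 2 highest for Esr1, Pgr, Foxa1 and Cited1.

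Esr1 (ENSMUSG00000019768.16, chromosome 10, 4611593 to 5005614, GRCm38) encodes oestrogen receptor alpha. It was at 4.34 and 5.17 CPM in Elf5-positive libraries 1 and 2, against 14.6, 6.21, 14.8 and 6.48 CPM in Elf5-negative libraries 1 to 4. The groups did not overlap, but the gap between the higher Elf5-positive and the lowest Elf5-negative library was small, and the T1 libraries were more than double the T2 libraries among the Elf5-negative ones. Its log2 fold change, Elf5-positive over Elf5-negative, was -1.15 with a standard error of 0.50 (edgeR adjusted p = 0.293). Within the T2 libraries of 1 title number the log2 ratio was -0.51 in the first pair (Elf5-positive library 1 over Elf5-negative library 2) and -0.32 in the second (Elf5-positive library 2 over Elf5-negative library 4).

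Pgr (ENSMUSG00000031870.16, chromosome 9, 8899833 to 8968611) encodes the progesterone receptor. It was at 0.990 and 0.968 CPM in the Elf5-positive libraries, against 8.08, 1.89, 4.56 and 1.65 CPM in Elf5-negative libraries 1 to 4. The levels of Pgr rest on 44 and 50 counts in the Elf5-positive libraries and on 16 to 370 counts in the Elf5-negative ones. Its log2 fold change was -2.06 (SE 0.76, edgeR adjusted p = 0.208; DESeq2 -2.06, adjusted p = 0.0336). Within the T2 pairs the log2 ratios of Pgr were -0.88 and -0.72. The fitted log2 fold change, which was not made with that prior count, lay farther from 0 than either.

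Foxa1 (ENSMUSG00000035451.7, chromosome 12, 57540628 to 57546916) encodes a forkhead factor that opens chromatin for the oestrogen receptor. It was at 4.59 and 1.20 CPM in the Elf5-positive libraries, against 8.34, 3.31, 14.5 and 1.65 CPM in Elf5-negative libraries 1 to 4. The groups overlapped, and at -1.28 (SE 0.92) Foxa1 did not pass (edgeR adjusted p = 0.576). The value was -2.55 without Elf5-positive library 1, -0.62 without Elf5-positive library 2 and -0.63 without Elf5-negative library 3. Its log2 ratios within the T2 pairs had opposite signs, 0.46 and -0.43.

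Gata3 (ENSMUSG00000015619.10, chromosome 2, 9857078 to 9890034) encodes a zinc finger factor needed for luminal cells. It was at 115.4 and 62.1 CPM in the Elf5-positive libraries, against 45.6, 52.2, 37.7 and 39.8 CPM in Elf5-negative libraries 1 to 4. Library 1 of the Elf5-positive group stood well above all others, and library 2 stood just above the highest Elf5-negative library. Fitted over all libraries its log2 fold change was 1.02 (SE 0.28, edgeR adjusted p = 0.0971; DESeq2 1.03, adjusted p = 0.0376) and was -0.43 when libraries were scaled to epithelial genes. That scaling moved the median of all genes tested from 0.05 to -1.31, so Gata3 stayed above the median. With TMM factors the Gata3 value was 0.50 without Elf5-positive library 1. The log2 ratios within the T2 pairs were 1.14 and 0.64. In the annotation Gata3 overlaps 3 other genes, Gm13256 and 4930412O13Rik on the opposite strand and 9230102O04Rik on its own, and the labels do not say whether the counting used strand.

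Cited1 (ENSMUSG00000051159.16, chromosome X, 102247381 to 102252181) encodes a CBP/p300-binding coactivator of the oestrogen receptor. It was at 1.78 and 0.910 CPM in the Elf5-positive libraries, against 7.44, 2.21, 4.60 and 0.720 CPM in Elf5-negative libraries 1 to 4. The lowest library was the Elf5-negative library 4, with 7 counts, so the groups overlapped. At -1.50 (SE 0.86) on the log2 scale Cited1 did not pass (edgeR adjusted p = 0.463), and the ratios within the T2 pairs were -0.30 and 0.31.

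Greb1 (ENSMUSG00000036523.16, chromosome 12, 16670615 to 16800886) is an early oestrogen-induced gene whose product binds the receptor in human breast cancer cells. It was at 0.585 and 0.194 CPM in the Elf5-positive libraries, against 3.69, 2.93, 2.56 and 1.95 CPM in Elf5-negative libraries 1 to 4. The groups were well apart, though Elf5-positive libraries 1 and 2 held only 26 and 10 counts and Elf5-negative library 4 only 19. The log2 fold change was -2.84 (SE 0.64, edgeR adjusted p = 0.0510), just outside the threshold, and Greb1 passed in 9 of 20 other settings. With DESeq2 it was -2.85 (adjusted p = 3.0e-05) and with limma-voom -3.06 (adjusted p = 0.0295). With the prior count, the log2 ratios within the T2 pairs were -2.18 and -2.91, nearer 0 than the CPM above give. Among the 8 genes Greb1 had the largest fitted difference and, unlike Esr1 and Pgr, had T1 libraries close to the T2 ones. Gm48140 on the opposite strand and the small RNA gene Gm44305 overlap it in the annotation.

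Tbx3 (ENSMUSG00000018604.18, chromosome 5, 119670669 to 119684724) encodes a T-box repressor needed for mammary development. It was at 24.4 and 0.252 CPM in the Elf5-positive libraries, against 19.1, 58.0, 15.3 and 4.11 CPM in Elf5-negative libraries 1 to 4. The Elf5-positive library 2 held only 13 counts while Elf5-positive library 1 lay inside the Elf5-negative range. The log2 fold change was -0.98 (SE 1.42, edgeR adjusted p = 0.807), which was 0.010 without Elf5-positive library 2 and -6.57 without Elf5-positive library 1. In both sorts the T2 library of the first title number was the higher, and the log2 ratios within the pairs were -1.25 and -3.67. The antisense gene Tbx3os1 overlaps it in the annotation.

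Stc2 (ENSMUSG00000020303.2, chromosome 11, 31357307 to 31370074) encodes stanniocalcin 2, a secreted glycoprotein that oestrogen induces in human breast cancer cells. It was at 40.9 and 42.7 CPM in the Elf5-positive libraries, against 71.4, 67.2, 37.6 and 29.0 CPM in Elf5-negative libraries 1 to 4. The Elf5-positive libraries lay inside the Elf5-negative range. At -0.30 (SE 0.39) on the log2 scale Stc2 did not pass (edgeR adjusted p = 0.781), and the ratios within the T2 pairs were -0.72 and 0.56.

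**Figure D2:**
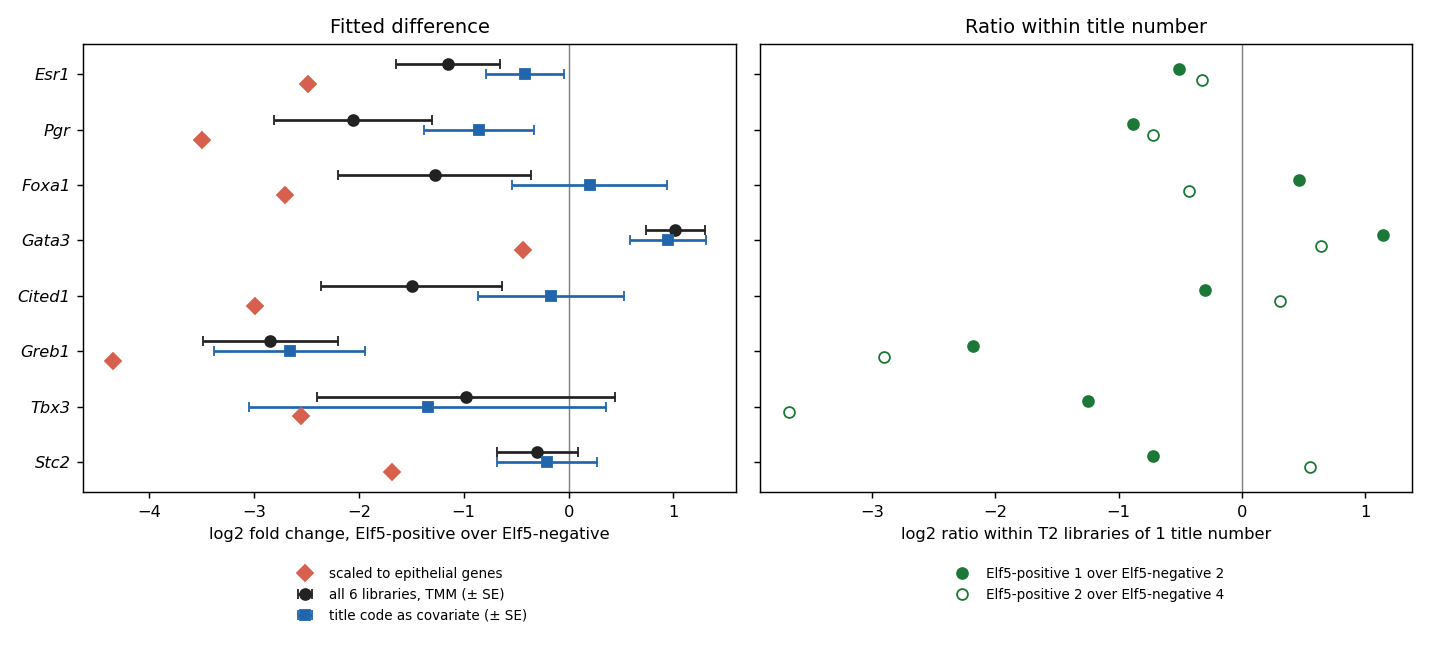
Left, log2 fold change of each gene, Elf5-positive over Elf5-negative (black, all 6 libraries with TMM factors; blue, title code as a covariate; bars, SE; red, scaled to epithelial genes, no error drawn). Right, log2 ratio within the T2 libraries of each title number (1 library over 1 library, no error). The red Gata3 value is -0.43, in a scaling that puts the median of all genes tested at -1.31, while its other values lie above 0. Esr1 and Pgr lie nearer 0 with the title code as a covariate (-0.41 and -0.86) than without it (-1.15 and -2.06).

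Both Elf5-negative T1 libraries lay above all 4 T2 libraries of either sort for Esr1, Pgr, Foxa1 and Cited1, that is for 4 of the 8 genes, where this held for 10.2% of all genes tested. Against the Elf5-negative T2 libraries alone, it held for the same 4 of the 8 and for 15.2% of all genes. Among the Elf5-negative libraries the T1 mean was 2.32 times the T2 mean for Esr1, 3.57 times for Pgr, 4.61 times for Foxa1 and 4.11 times for Cited1. It was 1.28 times for Greb1, 1.13 times for Stc2, 0.906 times for Gata3 and 0.553 times for Tbx3. With the title code as a covariate, a fit chosen after seeing the data, the T1 over T2 log2 fold changes were 1.21 (SE 0.37) for Esr1, 1.83 (SE 0.53) for Pgr, 2.18 (SE 0.77) for Foxa1 and 1.99 (SE 0.71) for Cited1. All 4 had an adjusted p of 1 (edgeR), and 0 of 20684 genes passed between the codes (0%). At an unadjusted p under 0.05 there were 676 genes, these 4 among them. That is a share of all genes tested below 0.05. Only edgeR was run on this comparison.

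In the same fit the Elf5-positive over Elf5-negative log2 fold change was -0.41 (SE 0.37) for Esr1, -0.86 (SE 0.52) for Pgr, 0.20 (SE 0.74) for Foxa1 and -0.17 (SE 0.70) for Cited1. It was -2.66 (SE 0.72) for Greb1 and 0.95 (SE 0.37) for Gata3. None of the 8 passed there (edgeR, 1.66% of all genes called). At an unadjusted p under 0.05 there were 2 of the 8, Greb1 and Gata3, beside 2366 of all 20684 genes. As both Elf5-positive libraries are T2, the sort can be compared within T2 but not within T1.

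Ratios of 2 genes within a library do not depend on how libraries are scaled. The ratio of Pgr to Esr1 was 0.228 and 0.187 in the Elf5-positive libraries, against 0.552, 0.305, 0.308 and 0.254 in Elf5-negative libraries 1 to 4, so the groups did not overlap. The ratio of Greb1 to Esr1 was 0.135 and 0.0375 in the Elf5-positive libraries, against 0.173 to 0.472 in the Elf5-negative libraries. The ratio of Gata3 to Esr1 was 26.6 and 12.0 in the Elf5-positive libraries, against 2.55 to 8.41 in the Elf5-negative libraries. The ratios of Foxa1 and Cited1 to Esr1 overlapped between the groups. Set against the sum of the luminal keratins Krt8 and Krt18, Gata3 (times 1000) was at 28.6 and 33.6 in the Elf5-positive libraries and 24.0 to 54.2 in the Elf5-negative libraries, which overlap. On the same scale Esr1 was at 1.08 and 2.79 in the Elf5-positive libraries, against 4.31 to 17.4 in the Elf5-negative libraries. Greb1 was at 0.145 and 0.105 in the Elf5-positive libraries, against 1.63 to 4.38 in the Elf5-negative libraries. Of 10 such ratios, chosen after seeing the data, 7 did not overlap. Each of the 7 had the smallest p possible for 2 against 4 libraries in the exact permutation test used. That test doubles the smaller tail for a two-sided p, and its smallest p cannot pass. This smallest value was p = 0.133 (exact permutation test), adjusted over the 10 ratios 0.190. Each of the 7 holds Esr1, Pgr, Greb1 or Gata3, whose levels already did not overlap between the groups. The levels of Krt8 and Krt18 did not overlap either. Such ratios were not computed for other genes, so the 7 have no share over all genes beside them.

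**Figure D3:**
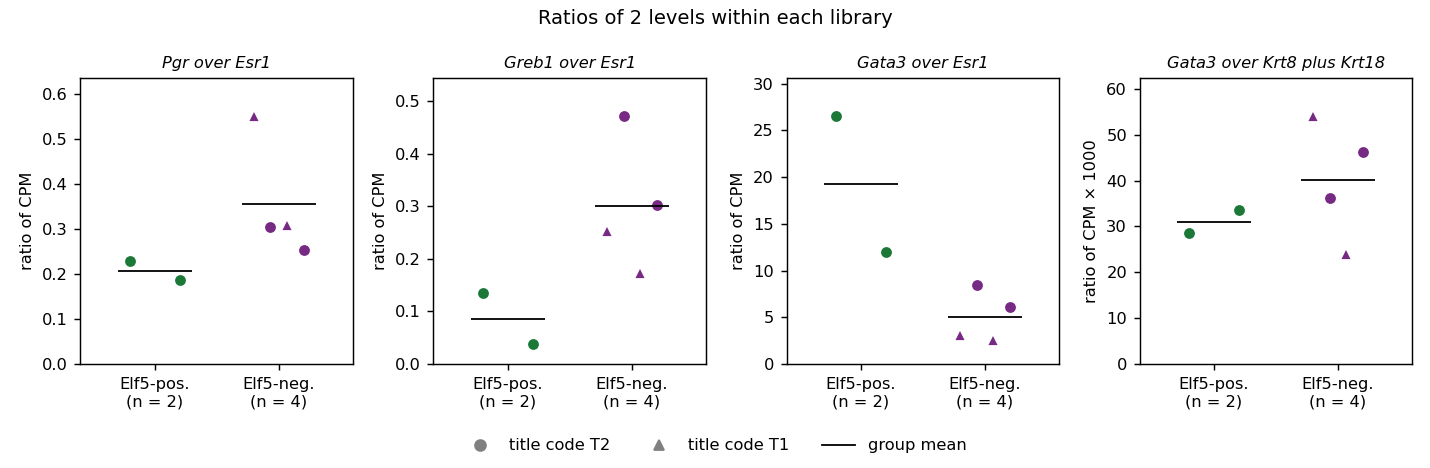
Ratio of 2 levels within each library (y axis, ratio of CPM, times 1000 for the keratins; x axis, group; circles, T2; triangles, T1; lines, group means). Pgr over Esr1 and Greb1 over Esr1 are lower in both Elf5-positive libraries than in all Elf5-negative ones, Gata3 over Esr1 is higher, and Gata3 over the keratins overlaps.

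Markers of other cell types differed between the sorts as well, and in bulk samples fewer cells of a type and less RNA per cell cannot be told apart. The summed level of 14 fibroblast markers was 1952 and 2052 CPM in the Elf5-positive libraries and 19823 to 54528 CPM in the Elf5-negative libraries, and 11 of the 14 were called lower (edgeR). Among the Elf5-negative libraries it was 27028 and 54528 CPM in the T1 libraries and 19823 and 21395 CPM in the T2 libraries. Fibroblasts of the mouse mammary gland also make Esr1. Of 7 pericyte markers 3 were called lower, with sums of 119.5 and 188.8 CPM in the Elf5-positive libraries against 608.1 to 1195 CPM in the Elf5-negative libraries. Of 18 epithelial genes 11 were called higher, with sums of 9780 and 6687 CPM in the Elf5-positive libraries against 2462 to 4172 CPM in the Elf5-negative libraries. Of 10 basal markers 5 were called lower. Their sums overlapped, at 1104 and 743.8 CPM in the Elf5-positive libraries against 909.2 to 1860 CPM in the Elf5-negative libraries. The basal keratin genes Krt14 and Krt17 were at log2 fold changes of 0.52 and 0.27, and the other basal markers lay below 0. Lowest were the contractile gene Myh11 (-4.61), Krt5 (-4.18) and the contractile gene Acta2 (-4.08). Trp63 (-2.90) and Cnn1 (-3.03) overlapped between the groups. Of 9 luminal progenitor markers 3, Elf5 included, were called higher. All 9 summed to 2983 and 3168 CPM in the Elf5-positive libraries against 523.1 to 1113 CPM in the Elf5-negative libraries. Much of these sums was Lcn2, at 2218 and 1525 CPM in the Elf5-positive libraries against 324.7 to 741.5 CPM in the Elf5-negative libraries. Aldh1a3 lay at a log2 fold change of -0.34 and the others above 0. Aldh1a3, Kit and Csn3 overlapped between the groups. Of 10 endothelial markers 3 were called lower, with sums of 76.9 to 101.9 CPM in the Elf5-positive libraries against 219.0 to 285.7 CPM in the Elf5-negative libraries. Of 10 leukocyte markers none was called, with sums of 40.7 to 76.9 CPM in the Elf5-positive libraries against 47.2 to 138.1 CPM in the Elf5-negative libraries. The 8 skeletal muscle markers summed to 206.5 and 37.2 CPM in Elf5-negative libraries 1 and 2 and to at most 5.35 CPM in the other 4, with none called, as for the 6 erythroid and 6 adipocyte markers. No marker was at 0 in every library, and Lep was at 0 in both Elf5-positive libraries. The part of these cells in the values of the 8 genes was not tested.

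Other genes of the pathway were read from lists chosen for their role, with earlier results of these data known. None of 9 other steroid receptor genes tested passed. An unadjusted p under 0.05 was reached by 2 as higher and 1 as lower (DESeq2 called 2 higher and 1 lower, limma-voom none), and the median log2 fold change was 0.01. The orphan receptor gene Esrrb was at 5.35 CPM in Elf5-positive library 1 and at most 0.371 CPM in the other 5, and its relative Esrrg was at 10.4 CPM in Elf5-positive library 2 and at most 0.926 CPM in the other 5. Their log2 fold changes of 3.63 and 3.40 thus each rest on 1 library, and were -0.18 without Elf5-positive library 1 and -0.41 without Elf5-positive library 2. Esr2, which encodes oestrogen receptor beta, was below the filter, with at most 0.542 CPM in any library.

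Of 12 other ligand-regulated nuclear receptor genes 2 fell, Pparg, the adipocyte regulator (log2 fold change -3.81, SE 0.71), and Nr2f1, an orphan receptor (-3.93, SE 0.84). Vdr, the vitamin D receptor gene, was at 0.95 (SE 0.31, edgeR adjusted p = 0.152) on the log2 scale, and at -0.44 with scaling to epithelial genes. Nr2f1 did not pass when any 1 of the 6 libraries was left out (adjusted p 0.0510 to 0.130), and Pparg passed in 2 of those 6 fits. None of 9 hormone-sensing cell markers and signals passed, with 4 of 9 values above 0, a median log2 fold change of -0.10, 2 lower at an unadjusted p under 0.05 and 2 lower with DESeq2. Tnfsf11, which encodes RANKL, was at 1.17 and 0.252 CPM in the Elf5-positive libraries, against 1.72 to 15.4 CPM in the Elf5-negative libraries (log2 fold change -3.64, SE 1.06, edgeR adjusted p = 0.111). Ly6a, which encodes the Sca-1 antigen, was at -1.94 (SE 0.72) and Wnt5a, which encodes a secreted Wnt, at -1.88 (SE 0.86), and neither passed. The prolactin receptor gene Prlr and Areg, which encodes amphiregulin, named here after their values were seen, were at 1.14 (SE 0.56) and -0.10 (SE 0.43) on the log2 scale. Likewise named afterwards, Wnt4 was at 0.83 (SE 0.58) and Prom1, a luminal surface antigen gene, at 0.94 (SE 0.44), and neither passed.

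Of 16 oestrogen receptor target genes tested, known mostly from human breast cancer cells, 2 fell. Igfbp4, which encodes a binding protein of insulin-like growth factors, was at 37.4 and 20.3 CPM in the Elf5-positive libraries, against 329.1 to 961.4 CPM in the Elf5-negative libraries (log2 fold change -4.35, SE 0.58, edgeR adjusted p = 0.0121). Cxcl12, a chemokine gene of stromal cells, was at 8.89 and 15.9 CPM in the Elf5-positive libraries, against 94.1 to 322.9 CPM in the Elf5-negative libraries (log2 fold change -3.97, SE 0.64, edgeR adjusted p = 0.0166). Igfbp4 passed in 5 and Cxcl12 in 3 of the 6 fits with 1 library left out, and Igfbp4 and Cxcl12 passed with the title code as a covariate. The fibroblast marker sums given above were also lower in the Elf5-positive libraries. Celsr2, an adhesion receptor gene, was at 1.30 (SE 0.32, edgeR adjusted p = 0.0690) on the log2 scale, and at -0.018 with scaling to epithelial genes. It was the 1 target gene called higher by DESeq2 (1.31, adjusted p = 0.0113) and by limma-voom (1.39, adjusted p = 0.0460). The target list had a median of 0.03, beside 0.05 for all genes tested.

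None of 16 receptor coregulator genes passed, with 1 at an unadjusted p under 0.05 and none with DESeq2 or limma-voom. Their median log2 fold change was 0.15. Ncoa1, a steroid receptor coactivator gene, was at 33.5 and 62.2 CPM in the Elf5-positive libraries, against 21.4 to 28.8 CPM in the Elf5-negative libraries, a log2 fold change of 0.92 (SE 0.29) that turned to -0.38 with scaling to epithelial genes. Ep300 and Phb2 were at 0.37 and 0.48 on the log2 scale. With scaling to epithelial genes they were at -0.95 and -0.85, where the median of all genes tested was -1.31. None of 7 steroid receptor chaperone genes passed or was at an unadjusted p under 0.05, and none passed with DESeq2 or limma-voom. Among them Fkbp4, Fkbp5 and Ptges3 were at 0.82, -0.39 and 0.43, and Fkbp4 and Ptges3 turned below 0 with scaling to epithelial genes. Of 8 steroid metabolism genes tested 1 fell, Hsd11b1, which regenerates active glucocorticoid, with 1.93 and 2.32 CPM in the Elf5-positive libraries against 18.6 to 65.0 CPM in the Elf5-negative libraries (log2 fold change -4.23, SE 0.66, edgeR adjusted p = 0.0161). Hsd17b1 and Hsd17b2, enzymes of oestradiol metabolism, were at -1.18 (SE 0.68) and 0.90 (SE 0.73), and neither passed (Hsd17b2 at -0.36 with scaling to epithelial genes). Both were near the floor, with at most 0.633 and 0.540 CPM in any library. Hsd11b1 passed in 3 of the 6 fits with 1 library left out.

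Of 13 paralogs of the 8 genes that were tested, 3 fell. Gata6, a GATA factor gene, had a log2 fold change of -3.89 (SE 0.71), Tbx5 one of -3.71 (SE 0.68) and Tbx2 one of -2.64 (SE 0.45). Each of the 3 passed in 2 of the 6 fits with 1 library left out. Tbx2, a T-box repressor like Tbx3, was at 1.57 and 1.43 CPM in the Elf5-positive libraries, against 11.6, 11.8, 7.99 and 6.07 CPM in Elf5-negative libraries 1 to 4. Among paralogs named after their values were seen, Foxa3 and Cited4 were higher in both Elf5-positive libraries than in all Elf5-negative ones and did not pass in edgeR (log2 fold changes 2.47 and 2.08, adjusted p = 0.0971 and 0.0635). Cited4 was at 74.6 and 101.0 CPM in the Elf5-positive libraries, against 9.73 to 40.0 CPM in the Elf5-negative libraries, where Cited1 was the lower of the 2 relatives in every library. DESeq2 and limma-voom each called 2 paralogs higher, where edgeR called 0. The count of 3 lower paralogs was 5 with DESeq2, 3 with limma-voom, 1 with the title code as a covariate and 0 without Elf5-negative libraries 1 and 2.

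**Figure D4:**
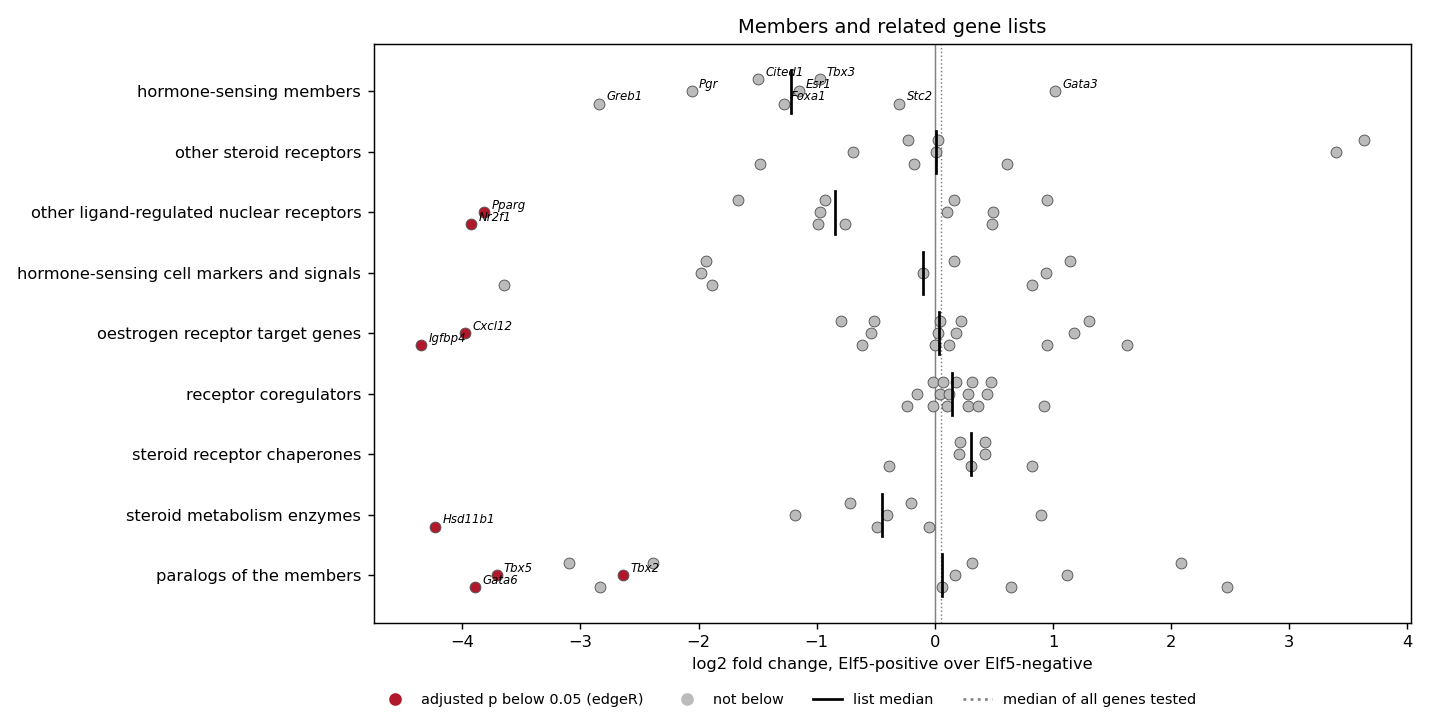
Log2 fold change of the 8 genes and of each tested gene of 8 related lists (x axis, Elf5-positive over Elf5-negative; red, edgeR adjusted p below 0.05; bars, list medians; dotted line, median of all genes tested, 0.05). None of the 8 genes is red, and all 8 red points lie left of 0. Gata3 is the one of the 8 genes right of 0 (at -0.43 when scaled to epithelial genes, where the all-gene median is -1.31).

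By the shape of their profile over the 6 libraries, the genes nearest to each of the 8 were found as those with the smallest root mean square difference of centred log2 CPM, among 12600 genes. For Esr1 they were Psen2 and Ulk2 (0.153 and 0.155). For Pgr they were Zc4h2 and Aff3 (0.203 and 0.305), and for Greb1 Tbcel and Adcy4 (0.180 and 0.181). For Gata3 they were Bcdin3d and Zbtb48 (0.113 and 0.118), and for Stc2 Pfkfb3 and Ccdc137 (0.166 and 0.218). Neighbours were farther for Foxa1, namely Nrk and Tnip3 (0.364 and 0.367), for Cited1, namely Cd53 and Ptprb (0.389 and 0.396), and for Tbx3, of which Hoxb2 was the nearest (0.512). Hoxb2, the nearest to Tbx3, was at 22.4 and 0.194 CPM in the Elf5-positive libraries, against 10.7, 24.0, 19.2 and 3.29 CPM in Elf5-negative libraries 1 to 4. Each likeness is computed over the same 6 libraries, which differ in sort, title code and depth.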

How the data were processed

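RNA from 6 sorted cell populations was sequenced, 2 of them GFP-positive and 4 GFP-negative per the labels. The deposited table holds estimated counts (expected counts, whole numbers) that the authors made with Salmon and, per the submitters' processing notes, GRCm38.p5. For the Salmon version, the annotation and the summing of transcripts, the record is: not given in the sources used here. Symbols matched 52220 of 52325 IDs without their version, and coordinates came from GENCODE M21 (GRCm38). Rounding changed no value. Genes were filtered with filterByExpr and scaled with TMM factors, and edgeR's quasi-likelihood test without a block compared the groups (edgeR 4.0.16, limma 3.58.1, DESeq2 1.42.0, R 4.3.3, Python 3.11.15, scipy 1.17.1, matplotlib 3.10.9), with Benjamini-Hochberg adjustment over 20684 genes and a threshold of 0.05. Standard errors are the log2 fold change over the root of F. CPM are TMM-scaled, and log2 CPM used a prior count of 3. The test was tried on simulated counts. The biological coefficient of variation (common) was 0.446. Totals of 9106660 to 53694884 counts limit low genes most in the shallowest library.

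The 8 genes and all lists were chosen with earlier results of these data known. Named genes are the 8 members, every list gene that passed, list genes of smallest p up to 3, and for each member the 2 genes of most like profile with average log2 CPM at or above 1, leaving out predicted genes and Rik clones. Others are said to be named after their values were seen. Some genes under this rule are not reported here. Ca12 and Sts were not matched by symbol and are not analysed here. Alternatives were a block of the title number, only T2 libraries, DESeq2, limma-voom, other factors and filters, robust dispersions, thinning and left-out libraries. The title code as a covariate and the ratios were added after seeing the data.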

Additional observations from a re-analysis of the deposited data

Results flagged for a closer look

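Among 32 genes checked over the 4 Elf5-negative libraries, Nr2f1 and Ep300 had a highest library whose gap to the next, as a share of the range, exceeded Dixon's 95% critical value, and chance alone gives about 1 in 20 groups. This held for none of the 8 members. Nr2f1 reached 29.1 CPM in Elf5-negative library 1, with no more than 9.05 CPM in the other 3. Ep300 reached 115.7 CPM in Elf5-negative library 4, with no more than 86.6 CPM in the other 3. Skeletal muscle markers were also highest in Elf5-negative library 1, and Elf5-negative library 4 was the shallowest. The part of these in the 2 values was not tested.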

How the results depend on the processing

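Of 20 other settings, Esr1, Pgr, Cited1 and Greb1 kept their direction in all, Gata3 and Stc2 in 19, Tbx3 in 18 and Foxa1 in 17. Scaling to epithelial genes put the all-gene median at -1.31 on the log2 scale (0.05 with TMM factors), called 13 genes higher and 8611 lower, and called 6 members lower, Esr1 (-2.49), Pgr (-3.49), Foxa1 (-2.70), Cited1 (-2.99), Greb1 (-4.35) and Stc2 (-1.68), with Gata3 at -0.43. It also turned Vdr (-0.44), Celsr2 (-0.018), Ncoa1 (-0.38), Phb2 (-0.85), Ep300 (-0.95), Fkbp4 (-0.52), Ptges3 (-1.003) and Hsd17b2 (-0.36). DESeq2 called 436 genes higher and 1763 lower, 1 member higher (Gata3, 1.03) and 2 lower (Pgr, -2.06, and Greb1, -2.85). Calls numbered 273 and 1331 with no low-count filter. Greb1 was the 1 member called lower with no filter (-2.89), at least 1 CPM in 2 libraries (-2.84), library totals only (-2.83) and limma-voom (-3.06). The title number may not pair animals: with it as a replicate block 252 genes were higher (1011 lower), 1 member was higher (Gata3, 0.97) and 1 lower (Greb1, -2.96), and with the block and only T2 libraries, 2 pairs, counts were 549 and 1368, with Gata3 at 0.90 (1 higher), Greb1 at -2.74 (1 lower) and Foxa1 at 0.076. Differences between title numbers correlated at 0.759 between the sorts over 13769 genes. With only T2 libraries and no block the edgeR counts were 0 and 0 (469 and 1463 at an unadjusted p under 0.05), with Foxa1 at 0.21. With the title code as a covariate 14 genes were higher and 329 lower, with Foxa1 at 0.20. Without Elf5-negative libraries 1 and 2, edgeR called 0 higher (539 unadjusted) and 75 lower, no member, with Tbx3 at 0.30 and Stc2 at 0.34. With 1 library left out, 25 to 133 genes were higher and 197 to 811 lower, 0 to 1 members were lower, and Greb1 ran from -3.83 to -2.25, Tbx3 from -6.57 to 0.010, Esrrb from -0.18 to 4.58 and Esrrg from -0.41 to 4.36. Where 1 Elf5-positive library is left, it is assumed to vary like the others. The causes of these changes were not tested. Depth limits Greb1, Pgr and Cited1, which had 19, 16 and 7 counts in Elf5-negative library 4.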
